A study of Mus musculus with 9 samples.

Results

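Among bone marrow cells sorted as LSK (lineage negative, Sca-1+, c-Kit+, the fraction that holds blood stem cells and early progenitors), a minority carried mRNA for major histocompatibility complex (MHC) class II together with the stem cell gene Procr. These class II positive Procr+ cells were taken from single-cell RNA-seq counts by a fixed rule on unique molecular identifiers (UMIs, each standing for 1 captured mRNA molecule). A cell counted as class II positive Procr+ when it had at least 1 Procr UMI, at least 2 Cd74 UMIs, at least 2 UMIs summed over H2-Aa, H2-Ab1 and H2-Eb1, and none of Mki67 or Flt3. Of 15975 cells that passed the quality limits, 1126 met the rule, which was 7.05% of LSK cells and 24.5% of the 4600 cells that had Procr but neither Mki67 nor Flt3 (the Procr gate). The rule uses measured values, so the levels of its 7 genes in the selected cells are given below as a description, without a test.

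All mice were C57BL/6, and each of the 3 groups had 3 libraries. Young mice were 10 to 12 weeks old and aged mice more than 80 weeks old, both injected with cyclodextrin as the vehicle. The third group was aged mice given CASIN, an inhibitor of the activity of the small GTPase Cdc42, at 25 mg/kg intraperitoneally every 24 h for 4 days, with marrow taken on day 5. The sort removed cells with CD11b, B220, CD5, Gr-1, Ter119 or CD8, and the cells of every group were frozen and thawed before 10x Genomics 3′ libraries were made. Young 1 and 2, aged 1 and CASIN 1 and 2 formed the first sequencing batch, and young 3, aged 2 and 3 and CASIN 3 the second. The libraries held from 19237354 to 42780953 UMIs, and the selected cells had a median of 10201 UMIs and 2946.5 genes. By library the selected cells numbered 91, 45 and 41 in young, 104, 170 and 164 in aged and 105, 199 and 207 in CASIN mice. Nothing in the labels states that 1 library was 1 mouse, so p-values measure the spread between these libraries.

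MHC class II molecules present peptides from engulfed or internal protein to CD4 T cells, and are best known from dendritic cells, B cells and macrophages. The alpha and beta chains H2-Aa and H2-Ab1 are assembled with the invariant chain Cd74, which cathepsins S and L (Ctss, Ctsl) trim, and the H2-DM heterodimer (H2-DMa, H2-DMb1) then loads peptide while H2-O (H2-Oa, H2-Ob) restrains it. H2-Eb1 encodes the E beta chain, and its mRNA does not show that an E molecule is assembled in these mice. Transcription of these genes is driven by the coactivator Ciita, recruited to a conserved promoter module that ends in a Y box bound by NF-Y. Procr encodes the endothelial protein C receptor, a surface marker of long-term stem cells, and Flt3 marks multipotent progenitors that lean to lymphoid fates.

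The promoters of H2-Aa and H2-Eb1, which the rule used, and of H2-DMb1, which it did not, are shown because they carry the Y box that this gene family shares. Each window runs from 250 bases before to 50 after the annotated start in RefSeq (GRCm38.p6), 5′ to 3′ on the gene's strand, and capitals mark TGATTGG.
H2-Aa: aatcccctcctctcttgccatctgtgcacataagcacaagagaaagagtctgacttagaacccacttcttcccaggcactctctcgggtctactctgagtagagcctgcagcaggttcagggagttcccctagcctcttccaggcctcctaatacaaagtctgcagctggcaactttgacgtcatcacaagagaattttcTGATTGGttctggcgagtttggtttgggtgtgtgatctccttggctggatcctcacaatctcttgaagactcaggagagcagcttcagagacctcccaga
H2-Eb1: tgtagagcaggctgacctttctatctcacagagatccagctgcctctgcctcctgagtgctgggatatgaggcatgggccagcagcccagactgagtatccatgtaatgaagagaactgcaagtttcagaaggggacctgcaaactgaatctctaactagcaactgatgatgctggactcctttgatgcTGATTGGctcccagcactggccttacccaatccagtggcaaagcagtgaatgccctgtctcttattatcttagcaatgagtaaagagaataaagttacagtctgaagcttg
H2-DMb1: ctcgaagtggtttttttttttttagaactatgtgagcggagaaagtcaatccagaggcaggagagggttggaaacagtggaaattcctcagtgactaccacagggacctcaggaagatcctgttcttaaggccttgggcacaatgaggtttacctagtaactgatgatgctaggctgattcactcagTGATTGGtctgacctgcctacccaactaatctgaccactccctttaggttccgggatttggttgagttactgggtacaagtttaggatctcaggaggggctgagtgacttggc
The windows are chr17:34287774-34288073 (minus strand) for H2-Aa, chr17:34305617-34305916 (plus strand) for H2-Eb1 and chr17:34152941-34153240 (plus strand) for H2-DMb1, and TGATTGG starts 50, 61 and 63 bases upstream of their starts. Searched on both strands, TGATTGG was found in 7 of the 9 promoter windows of H2 class II genes (77.8%) and in 2568 of all 32851 windows (7.82%). Both windows of H2-DMa lacked these letters. H2-Ab1 and Ciita are named here without a window. A match is a description of the sequence and no evidence of binding in these cells.

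In most class II positive Procr+ cells few class II UMIs were captured. The median cell had 5 Cd74 UMIs (10th to 90th percentile 2 to 15, highest 140) and 6 UMIs over the 3 H2 genes (2 to 15, highest 169), and its median Procr count was 2 UMIs. All 3 H2 genes were detected in 638 cells (56.7%), whereas H2-Aa had no UMI in 13.1%, H2-Ab1 in 16.2% and H2-Eb1 in 21.9% of the cells. At the edge of the rule, 231 cells had exactly 2 Cd74 UMIs, 155 had exactly 2 H2 UMIs and 58 had both. Just outside it, 329 gate cells had 1 Cd74 UMI with enough H2 UMIs, 133 had 1 H2 UMI with enough Cd74 UMIs, and 171 had 1 of each. With both thresholds at 4 UMIs, 632 cells remained. The Procr gate held 1450 cells with no UMI of Cd74 or the 3 H2 genes, called class II negative here, and 2024 cells between the classes.

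Free RNA in droplets gives stray UMIs, so the same 2 class II conditions were applied to other cells as comparators. That the comparators make little class II mRNA of their own was assumed and not tested. The conditions were met by 10 of 163 cells with Elane, Prtn3 and Ctsg (6.13%, median 21541 UMIs), granulocyte-committed by these genes, and by 51 of 543 Procr-negative cells with Pf4 and Itga2b (9.39%, median 13537 UMIs), against 24.5% of the Procr gate (median 9787.5 UMIs). After each cell was thinned to 4000 UMIs, the counts were 0 of 62, 4 of 209 (1.91%) and 404 of 3446 (11.7%). The class II conditions were thus met more often in the gate than in either comparator over all libraries pooled. In aged 1 the gate barely exceeded the granulocyte-committed cells, at 14.02% against 2 of 16 cells (12.5%). A share of the selected cells up to the comparators' level cannot be told from free RNA. Class II transcripts were found outside Procr+ cells as well, since 3628 LSK cells (22.7%) met the same 2 conditions, of which 1970 had Procr, 1792 had Flt3 and 775 had both.

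Several defining markers of mature antigen-presenting cells had no UMI in the selected cells, while other genes of the same lists were present. Of 14 B cell markers 5 had no UMI in any of them (among them Cd22, Pax5, Igll1 and Fcmr), of 14 dendritic cell markers 5 (among them Siglech and Cd209a, and Flt3 by the rule), and of 14 monocyte and macrophage markers 3 (C1qa, C1qc and Adgre1). The sort had already removed cells with B220 or CD11b. In class II negative cells 6, 5 and 5 genes of the same lists had no UMI, so such absences do not set apart the selected cells. Itgax, a dendritic cell integrin, had 2 UMIs and Cd79a, a B cell receptor subunit, 4 UMIs in all 12718418 UMIs of these cells, whereas its partner Cd79b had 250 UMIs (18.1% of the selected and 17.9% of class II negative cells). The most abundant genes of the 3 lists were Igkc, Cst3 (mean 392 CPM, UMIs of the gene scaled to 1000000 UMIs of the same cells in the library) and Cd14 (33.7). Ighm, the immunoglobulin heavy chain, had a median of 41.6 CPM over the libraries (0 to 1812) against 22.5 (0.903 to 198) in class II negative cells, and Tcf4, a transcription factor of plasmacytoid dendritic cells, averaged 153 against 156. Summed over the dendritic cell list the selected cells had from 435 to 635 CPM in the 9 libraries and class II negative cells of the Procr gate from 448 to 666. The monocyte and macrophage list summed to 4.03 to 129 CPM in the selected and 7.07 to 121 in the negative cells. Their part in the results below was not tested. Summed over the B cell list the selected cells had 54.6, 50.4 and 119 CPM in young, 32.5, 254 and 554 in aged, and 34.4, 8323 and 166 in CASIN libraries. The value of CASIN 2 came from 1 cell with 13665 Igkc UMIs, whereas no other selected cell had more than 17. Without cells of at least 100 Igkc UMIs, a setting chosen after seeing the data, no count of called genes given below moved by more than 1.5 times. Scrublet, a doublet caller, marked 92 of all cells (0.576%) and 8 of the selected cells, 4 of them in CASIN 1, 3 in CASIN 3 and 1 in aged 3. Barcodes were shared between libraries by 62 cell barcodes, of which 7 belonged to a selected cell and 0 to selected cells in both libraries.

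Class II positive Procr+ cells made up a larger share of LSK in aged than in young mice, with or without CASIN. They were 4.22%, 2.04% and 3.38% of LSK cells in the young libraries, 6.63%, 10.1% and 9.26% in the aged and 9.39%, 11.0% and 8.48% in the CASIN libraries. Every aged and every CASIN library was above every young one, and the aged and CASIN ranges overlapped. The means were 3.21% ± 1.10 (SD, n = 3), 8.65% ± 1.79 and 9.64% ± 1.30. The exact 95% binomial intervals, which cover counting error only, ran from 1.49% to 2.71% in young 2, the lowest library, and from 9.63% to 12.6% in CASIN 2, the highest. Aged exceeded young by 5.43 percentage points (two-sided exact permutation test, p = 0.1, adjusted over 6 tests 0.3), by 3.50 in the first batch and 6.27 in the second. CASIN exceeded young by 6.42 points (exact p = 0.1, adjusted 0.3), by 7.09 and 5.10 within batches. Thinned to 4000 UMIs per cell, aged exceeded young by 2.84 points (0.666 in the first batch) and CASIN exceeded young by 2.50, and with both class II thresholds at 4 UMIs by 3.35 and 3.81. Every aged and CASIN library was above every young one in these settings too. A p of 0.1 is the smallest that 3 against 3 libraries can give. The CASIN share was 0.991 points above the aged share (exact p = 0.5, adjusted 0.6), and the batches gave opposite signs, 3.59 and -1.17.

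**Figure D1:**
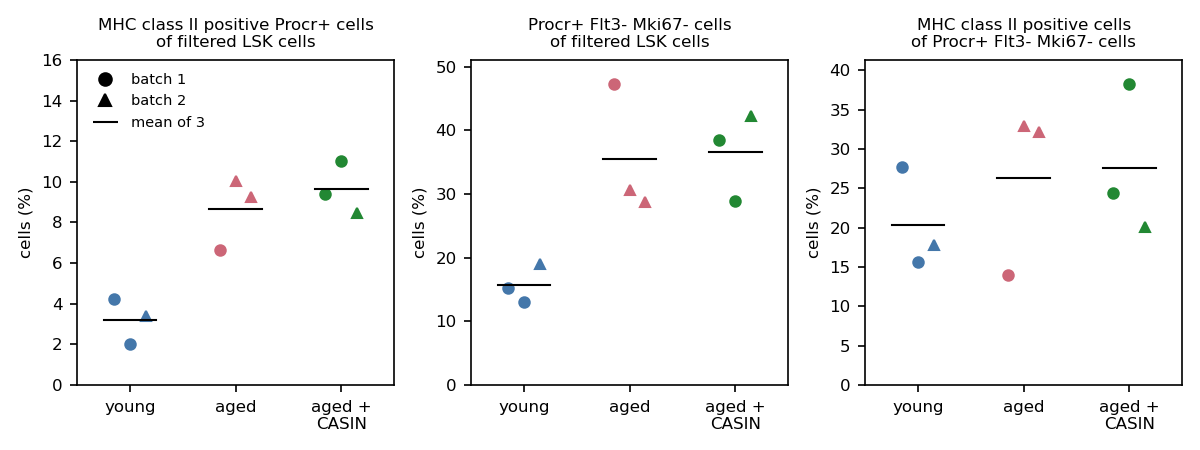
Each point is 1 library (circles batch 1, triangles batch 2) and each bar the mean of 3; the y axes are percent of cells. The left panel shows class II positive Procr+ cells of LSK (means 3.21% young, 8.65% aged, 9.64% CASIN), the middle panel the Procr gate of LSK (15.8%, 35.5% and 36.6%), and the right panel class II positive cells within the gate (20.3%, 26.4% and 27.6%), where the 3 groups overlap.

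The Procr gate itself held more of the LSK cells in aged mice, and within it the class II positive shares of the groups overlapped at full depth. The gate was 15.2%, 13.0% and 19.1% of LSK in young, 47.3%, 30.6% and 28.8% in aged and 38.6%, 28.8% and 42.3% in CASIN libraries, with no overlap of young with the other groups (aged minus young 19.8 points, exact p = 0.1, the smallest possible). Thinned to 4000 UMIs per cell the gate was 13.4%, 27.2% and 26.2% of LSK in young, aged and CASIN mice, again with no overlap of young with the others. With a mitochondrial limit of 5% the aged minus young difference was 13.4 points. In the second batch it fell from 10.6 to 2.77 points, with aged 2 at 15.97% against 15.92% in young 3. Free Procr RNA was gauged in the granulocyte-committed cells, of which 9.82% had a Procr UMI (median 21541 UMIs) against 47.9% of LSK cells (median 11706), and 1 of 163 lay in the gate. By group, 9.43%, 8.33% and 12.0% of these cells had Procr in young, aged and CASIN mice, on 53, 60 and 50 cells. Of the gate, class II positive cells were 27.7%, 15.6% and 17.7% in young, 14.02%, 32.9% and 32.2% in aged and 24.4%, 38.3% and 20.1% in CASIN libraries. Aged 1 lay below every young library while aged 2 and 3 lay above them. The aged mean exceeded the young one by 6.01 points (exact p = 0.4, adjusted 0.6) with -7.63 in the first batch and 14.8 in the second. This difference was 12.2 points without aged 1, 2.74 without aged 2, 3.105 without aged 3, 9.66 without young 1, 3.65 without young 2 and 12.4 with a mitochondrial limit of 5%. CASIN exceeded young by 7.22 points (exact p = 0.4), and by 1.87 without CASIN 2, 10.9 without young 1, 10.97 without CASIN 3, 4.86 without young 2 and 11.4 with the limit of 5%. The CASIN mean exceeded the aged by 1.21 points (exact p = 1), with 17.3 and -12.5. Thinned to 4000 UMIs per cell, class II positive cells were 5.89%, 13.9% and 13.3% of the gate in young, aged and CASIN mice (aged minus young 7.96 points, exact p = 0.3, CASIN minus young 7.41 points, exact p = 0.1, the smallest possible). In the thinned counts every CASIN library (9.66% to 18.9%) lay above every young one (4.20% to 7.25%), while aged 1 (4.57%) lay within the young range. The whole rule was applied again after thinning, so cells that lost their Flt3 or Mki67 UMIs could enter the gate. Of young cells with Procr, 848 of 2202 lay in the gate at full depth and 707 of 1037 when thinned. In aged mice these were 1769 of 2726 and 1325 of 1598, and in CASIN mice 1983 of 2727 and 1414 of 1604. The thinned gate is therefore a different set of cells, and its part in these shares was not tested.

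Within the Procr gate, class II positive cells were then compared with class II negative cells of the same library, so that age, treatment and batch are held within each pair. Beyond the genes of the rule, they had more mRNA for the peptide loading factors H2-DMa and H2-DMb1, for Ly6a, several class I genes and NF-kB genes, and less for Vwf and 9 other genes of a list of 21 raised in aged stem cells, a list partly chosen on these samples. Of 8270 genes tested with edgeR's quasi-likelihood test (each library a block, Benjamini-Hochberg adjusted p below 0.05), 130 were higher (1.57%) and 106 lower (1.28%), together 2.85% of those tested. The class II positive cells were also slightly deeper (median 10201 against 9242 UMIs) and had a slightly lower mitochondrial share (median 4.43% against 4.76%), whose part in these differences was not tested. Thinned to 4000 UMIs 58 genes passed, with a mitochondrial limit of 5% 52, and with DESeq2 78. Of these, 30, 45 and 74 were among the genes called in the main fit. Without aged 2 the count was 153 and without CASIN 3 it was 125.

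Among the class II pathway, 22 genes were listed and 7 could be tested beside the rule's own, of which 3 were higher and 0 lower (median log2 change 0.48, against 0.00 over all genes). H2-DMb1, the beta chain of the peptide loader, lay at chr17:34153072-34160230 in GENCODE (GRCm38), a span that begins upstream of the RefSeq start used for its window, and ranged over the 9 libraries from 47.6 to 92.5 CPM (median 79.0) in class II positive cells and from 19.95 to 53.2 (median 43.7) in class II negative cells. It was higher in class II positive cells in 9 of 9 libraries, although the 2 ranges overlapped at their ends. The log2 change was 0.96 (SE 0.09, edgeR adjusted p = 1.66e-11). Its partner H2-DMa (chr17:34119541-34139101) averaged 146 ± 21.3 (SD, n = 9 libraries) against 99.6 ± 33.0 CPM, with a log2 change of 0.68 (SE 0.11, edgeR adjusted p = 0.00526), and was higher in 8 libraries with young 2 as the exception. Ctss, the protease that finishes the trimming of Cd74, averaged 23.6 ± 12.2 against 12.1 ± 12.7 (log2 change 1.31, edgeR adjusted p = 0.0216), and that call was lost without aged 2 (adjusted p = 0.0715) or CASIN 1. H2-Oa gave 19.0 ± 5.42 against 13.8 ± 6.24 and Ctsl 137 ± 17.1 against 149 ± 36.7, neither past the test (adjusted p = 0.15 and 0.481).

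The coactivator itself was close to the floor of detection. Ciita had 24 UMIs in all class II positive cells, or 3.52, 0 and 0 CPM in young, 0.855, 1.07 and 0.589 in aged and 2.55, 4.67 and 0.924 in CASIN libraries. No library went above 5 CPM, and the gene was not tested. Of 8 other listed promoter factors that were tested 1 was higher. That gene was Spi1, the myeloid and B-lineage factor PU.1, with a mean of 193 ± 123 against 150 ± 94.1 CPM (log2 change 0.40, edgeR adjusted p = 0.00011).

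The Sca-1 gene and 7 class I genes were higher in class II positive cells. Ly6a, which encodes the Sca-1 protein used in the sort, ranged from 206 to 340 (median 268) in class II positive and from 134 to 261 (median 154) in class II negative cells. It was higher in all 9 libraries (log2 change 0.76, SE 0.06, edgeR adjusted p = 6.56e-16). Of 17 class I genes 7 were higher and 0 lower, with a median log2 change of 0.15. H2-Q4 (0.32), H2-Q6 (0.31) and H2-Q7 (0.29), near-identical Qa-region class I genes between which reads may be split, rose by these log2 amounts, as did the immunoproteasome subunits Psmb8 (0.30) and Psmb9 (0.37) and the class I light chain B2m (0.15). Psmb10 (0.26) was the other gene called, and lost the call in 5 of the 9 fits that left out 1 library. Of 17 interferon gamma response genes 2 were higher, Ly6a and Gbp5, with a median log2 change of 0.29 and 9 of the 17 at an unadjusted p below 0.05 (1063 of all 8270 genes). Gbp5 lost its call without any of 6 libraries. Of 14 type I interferon genes (median 0.18) 1 was higher, the tethering factor Bst2 (log2 change 0.25, 204 ± 31.7 against 173 ± 36.0 CPM).

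Among 18 NF-kB pathway genes 5 were higher and 1 lower with edgeR, with a median log2 change of 0.10. DESeq2 called 1 of them, Nfkbia, and gave no adjusted p for the 4 others that were higher. Nfkbia, the inhibitor that NF-kB induces, averaged 221 ± 37.5 against 183 ± 35.3 CPM, and was higher in 9 of 9 libraries (log2 change 0.33, edgeR adjusted p = 0.00011). Relb, the subunit of the alternative pathway, rose by 0.54 on the log2 scale (32.6 ± 18.6 against 22.8 ± 15.7), and Birc3, an inhibitor of apoptosis, by 0.70 (25.4 ± 11.4 against 17.3 ± 9.49). Nfkb2 (0.51) and the deubiquitinase Tnfaip3 (0.79) passed the test with all libraries, but Nfkb2 lost it in 6 and Tnfaip3 in 3 of the 9 fits that left out 1 library. The gene that fell was Tnfaip2, at 73.3 ± 34.4 against 90.8 ± 47.2.

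**Figure D2:**
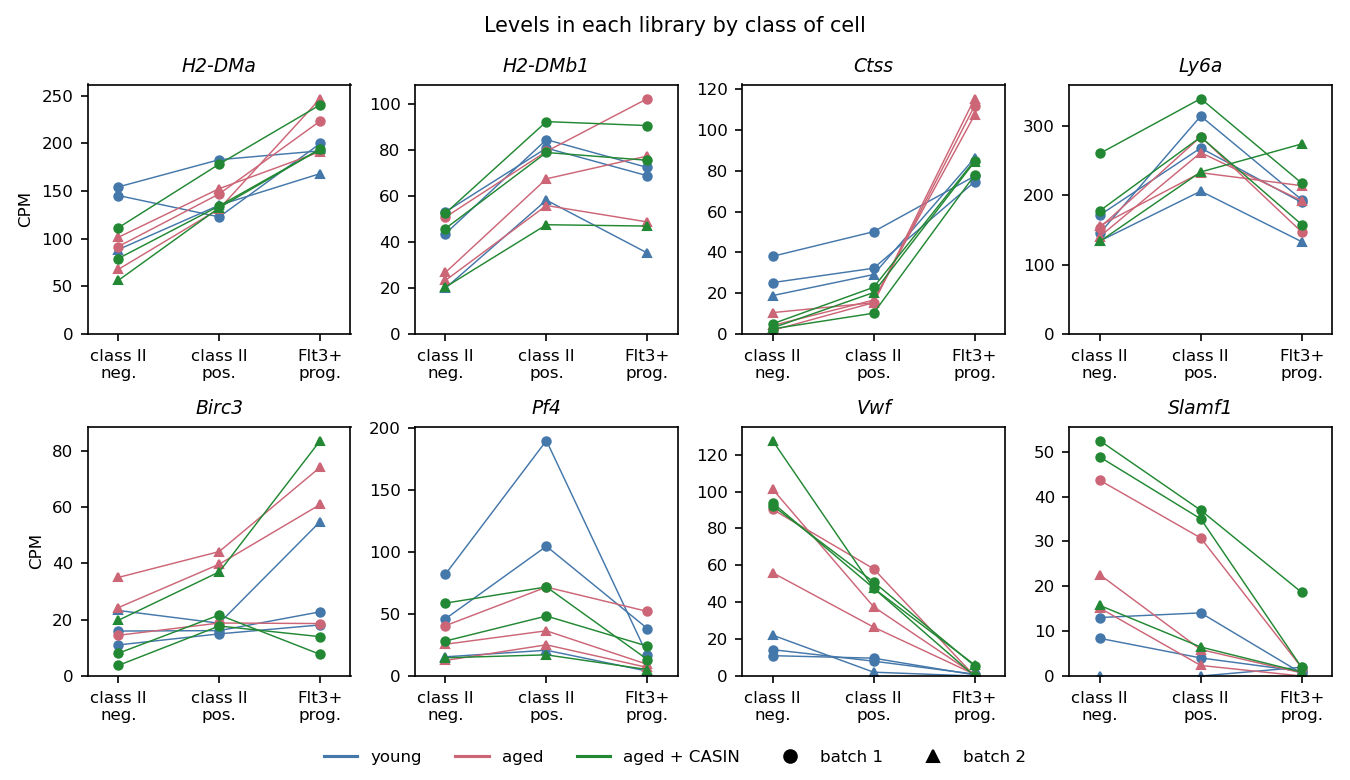
Each line joins the class II negative, the class II positive and the Flt3+ class II positive cells of 1 library, in CPM, with the group given by colour and the batch by the point's shape. H2-DMb1, Ly6a and Pf4 rise and Vwf falls from class II negative to class II positive cells in all 9 libraries, and Ctss is highest in the Flt3+ progenitors.

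Among the genes that were lower, Vwf, the von Willebrand factor of platelets and endothelium (chr6:125546774-125686679), ranged from 2.08 to 58.1 (median 37.6) CPM in class II positive cells and from 11.0 to 128 (median 90.3) in class II negative cells. It was lower in class II positive cells in 9 of 9 libraries, while the ranges overlapped. The log2 change was -1.05 (SE 0.10, edgeR adjusted p = 3.44e-11). Of 21 tested genes on a list of genes raised in aged stem cells 0 were higher and 10 lower, with a median log2 change of -0.57. That list was partly chosen on these samples and is not independent evidence. Besides Vwf, the netrin receptor Neo1 (-1.07), the chemoattractant receptor Gpr183 (-0.99), the endocytic protein Ehd3 (-0.85), the SLAM receptor Slamf1 (-0.72) and the caveolar protein Cavin2 (-0.57) fell by these log2 amounts. Slamf1, which encodes CD150, averaged 15.1 ± 15.0 against 24.4 ± 19.0 and was lower in 7 of 9 libraries. Clu (-1.07) was called as well, but not without aged 2 (adjusted p = 0.05004).

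The platelet list did not move as 1 group. Of its 11 tested genes 1 was higher and 3 lower. Pf4, platelet factor 4, was the one that rose, from 36.1 ± 23.4 to 65.2 ± 55.0 CPM, in 9 of 9 libraries (log2 change 0.82, SE 0.10, edgeR adjusted p = 1.1e-07). Vwf, Cd9 and Itga2b (the integrin CD41, -0.58) fell, and the call of Itga2b was lost without aged 1. Of 27 stem cell genes 2 were higher and 4 lower (median -0.02). Hlf, a transcription factor of stem cells, rose by 0.33 (299 ± 106 against 248 ± 89.4), and Gata2 fell by 0.28, lost without aged 1. Fgd5 fell by 0.53 and lost the call without CASIN 1 or CASIN 3.

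The counts of the lymphoid, stress and cycle lists stand beside 1.57% of all 8270 genes higher and 1.28% lower. Of 11 lymphoid priming genes 2 were higher, the common cytokine receptor chain Il2rg (0.39) and the leukocyte actin regulator Lsp1 (0.55, 105 ± 39.2 against 73.8 ± 30.3 CPM). Of 24 immediate early and heat shock genes 1 was higher, the phosphatase Dusp1 (0.34), and 4 lower, including Egr3 (-0.63), Btg2 (-0.29) and Nr4a2 (-0.29). Of 20 cell cycle genes edgeR called 0 (median -0.04), with 1 at an unadjusted p below 0.05. DESeq2 called 0 as well, but gave no adjusted p for 6 of the 20. Mki67 was at 0 in both classes by the rule. Outside the lists, Myl10, a myosin light chain, was higher (log2 change 0.65, 9 of 9 libraries), as were the acyl-CoA thioesterase Acot1 (0.69) and Sh3bp5 (0.62), and the lysosomal protease Ctsc was lower (-0.49).

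**Figure D3:**
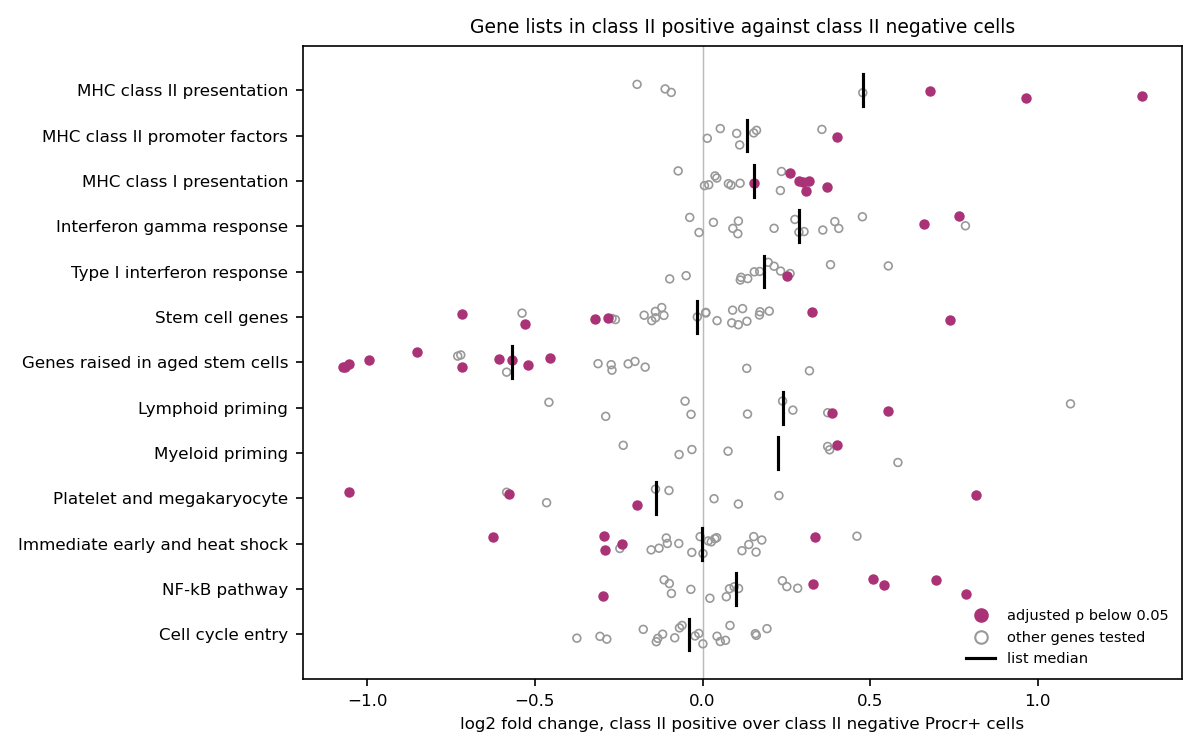
Each point is 1 gene of a list, at its log2 fold change of class II positive over class II negative Procr+ cells; filled points passed the adjusted p threshold of 0.05, open points did not, and black bars are list medians. The class II list (without the rule's own genes) has its median at 0.48 and the list of genes raised in aged stem cells at -0.57, and the medians of the other lists plotted lie nearer to 0.

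A second comparison asked how far Procr+ class II positive cells resembled the other class II positive cells of LSK, the 711 cells with Flt3 and no Procr or Mki67. The classes differed in 36.8% of 7996 genes tested with edgeR (1388 higher, 17.4%, and 1553 lower, 19.4%), at a higher depth in the progenitors (median 12961 UMIs), and thinned to 4000 UMIs 227 genes passed. Of 24 stem cell genes 20 were higher and 3 lower in the Procr+ cells (median log2 change 1.40). The stem cell factors Mecom (166 ± 29.7 against 68.7 ± 17.2 CPM, log2 change 1.26), Mllt3 (2.53) and Hlf (0.88) were among them, with Fgd5 (2.47), the imprinted RNA Meg3 (3.19), Nupr1 (4.29) and the lipid carrier Apoe (578 ± 224 against 53.4 ± 15.3, log2 change 3.38). Cd34 (-1.69) and Cd48 (-3.43, 7.39 ± 7.03 against 77.8 ± 41.0) were lower. The classes were split on Procr and Flt3, so these differences are no independent check of the stem cell label, and no functional readout was analysed here.

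Of 12 lymphoid priming genes 0 were higher and 11 lower in the Procr+ cells (median log2 change -1.49). Dntt, the terminal transferase of early lymphoid cells, ranged over the 9 libraries from 1.71 to 17.6 (median 8.33) CPM in the Procr+ cells and from 213 to 677 (median 446) in the Flt3 progenitors. The ranges did not overlap (log2 change -5.55, SE 0.30, edgeR adjusted p = 1e-06). The chromatin organiser Satb1 (-2.93) was lower as well. Of 12 myeloid priming genes 2 were higher and 6 lower (median -0.76), where 17.4% of all genes were higher and 19.4% lower, with the granule protease Ctsg (-3.89) among the lower. Outside the lists, Tyrobp (-3.13) and Ncf1 (-3.37) were lower. Of 21 cell cycle genes 4 were higher, a share near that of all genes, and 13 lower, among them the kinase Cdk6 (-1.13) and the replication licensing factor Mcm2 (-1.64).

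Some class II pathway genes differed between the 2 classes. Both classes were chosen by the same Cd74 and H2 thresholds, so those genes are not compared. Of 8 other genes tested 2 were higher and 5 lower, beside 17.4% and 19.4% of all genes. H2-Ob, the modulator chain known from B cells, ranged from 2.02 to 10.6 in Procr+ cells and from 28.5 to 76.2 in the progenitors, with no overlap (log2 change -2.82, SE 0.17, edgeR adjusted p = 1.24e-13). Ctss (-2.08) and H2-DMa (-0.51) were lower too, and H2-Oa (-0.53, lost without CASIN 2) and the costimulatory ligand Cd86 (-0.79, lost without aged 2) less firmly so. The proteases Ctsl (0.95, 137 ± 17.1 against 70.4 ± 13.6) and Ctsb (0.50) were higher in Procr+ cells. H2-DMb1 gave 71.8 ± 15.1 against 68.8 ± 21.7 and was not called (adjusted p = 0.841). Igkc was lower by 5.68 on the log2 scale with all cells, and this turned to 0.06 without the Igkc-rich cells, of which the progenitors held 6.

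Age was then compared within the class II positive Procr+ cells, over the 9 libraries with sequencing batch as a term. Aged cells had higher Selp, Vwf, Clca3a1, Mt1 and Aldh1a1 than young cells, and so had cells from CASIN-treated aged mice. Between aged and young cells 175 genes were higher (1.81%) and 28 lower (0.29%) of 9642 tested with edgeR, together 2.11%. The count rests on single libraries and on the batch term: it was 40 without young 1, 108 without young 2, 77 without aged 1, and 1 with no batch term, and thinned to 4000 UMIs it was 11. CASIN and young differed in 181 higher (1.88%) and 60 lower (0.622%) genes, together 2.5%. This count was 48 without young 1, 120 without young 2, 160 without CASIN 1, 1 with no batch term and 17 when thinned. Both comparisons use the same 3 young libraries. The median mitochondrial share of the class II positive cells was 3.28%, 3.01% and 5.21% in young libraries. It was 3.51%, 7.06% and 6.18% in aged and 3.68%, 3.50% and 6.37% in CASIN libraries. Within each batch every older library was above every young one, as in the Procr gate. The part of this in the differences was not tested. All genes printed with a log2 change in the next 2 paragraphs kept their call in each fit that left out 1 library, unless stated.

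P-selectin, encoded by Selp (chr1:164115264-164150026), was 9.68, 6.05 and 12.5 CPM in young, 120, 100 and 77.2 in aged and 106, 104 and 89.6 in CASIN libraries. Every aged and CASIN library exceeded every young one several-fold, and the 2 older groups overlapped. The log2 change was 3.55 for aged against young (SE 0.26, edgeR adjusted p = 4.44e-11) and 3.45 for CASIN against young, and it was called without the batch term too. Vwf read 9.68, 8.06 and 2.08 in young, 58.1, 37.6 and 26.5 in aged and 51.0, 47.7 and 47.6 in CASIN libraries. Again the young libraries were all lowest (log2 change 2.65, SE 0.35, edgeR adjusted p = 1.71e-05, and 2.79 for CASIN against young). Aldh1a1, a retinaldehyde dehydrogenase, read 20.2, 26.2 and 20.8 in young, 65.8, 79.4 and 53.0 in aged and 80.3, 75.2 and 55.4 in CASIN libraries, which also left no overlap with young (1.77 and 1.73).

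Other genes of the same kind were Clca3a1 (log2 change 5.31 for aged and 5.12 for CASIN against young, with 4 UMIs in all young cells), the metallothionein Mt1 (2.96 and 3.16) and the scramblase Plscr2 (2.44 for aged against young). Of 23 tested genes raised in aged stem cells 15 were higher and 0 lower in aged cells (median log2 change 2.50, against 0.02 over all genes), and 16 and 0 in CASIN cells against young (median 2.79). As above, part of this list was chosen on these samples. Gstm2, a glutathione transferase, had 0 UMIs in young class II positive cells and 116 UMIs in CASIN cells, at least 13.9-fold higher taking 3 UMIs over the young group as the floor. The Sca-1 relative Ly6e read 281, 204 and 366 in young and 452, 494 and 540 in aged libraries (0.78, and 0.75 for CASIN against young). The adaptor Lax1, which restrains antigen receptor signalling, fell from 25.5, 20.2 and 45.8 to 4.28, 11.8 and 8.25 (-2.09). Socs2, a feedback inhibitor of cytokine signalling, was lower in CASIN than in young cells (-1.75), and lower in aged cells only with all of young 1, young 2 and aged 1 in the fit (-1.24).

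**Figure D4:**
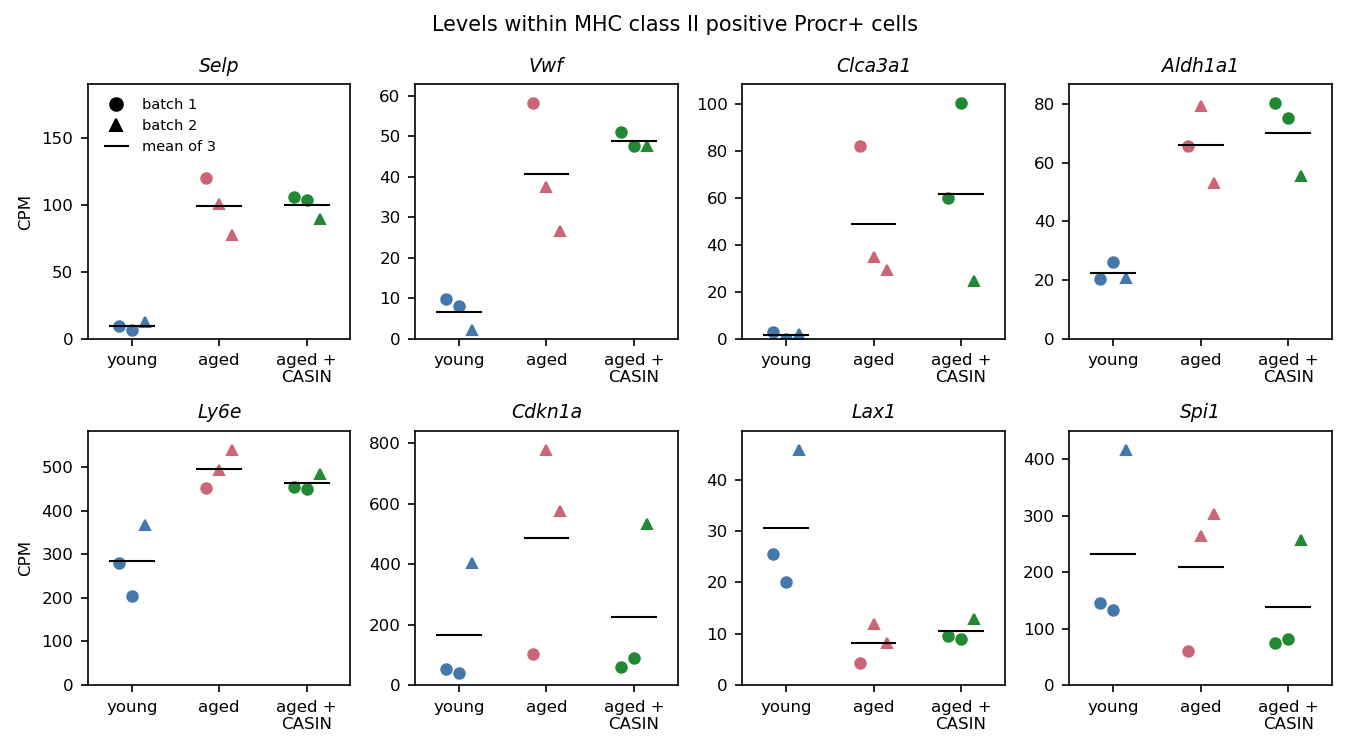
Each point is 1 library (circles batch 1, triangles batch 2) and each bar the mean of 3, in CPM within class II positive Procr+ cells. Selp, Vwf, Clca3a1 and Aldh1a1 lie higher in all aged and CASIN libraries than in any young one and Lax1 lower, whereas Cdkn1a and Spi1 differ mainly between the batches.

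Of 25 immediate early and heat shock genes tested 6 were higher and 0 lower in aged cells (median log2 change 0.96), and DESeq2 called 12. In CASIN against young cells 5 were higher and 0 lower (median 0.55), and DESeq2 called 6. In CASIN against aged cells edgeR and DESeq2 called 0, with a median log2 change of -0.38. Dnajb1, a heat shock cochaperone, was 128, 145 and 31.2 in young, 216, 89.6 and 64.8 in aged and 189, 198 and 49.9 CPM in CASIN libraries, so each second-batch library lay below each first-batch one (0.96 with batch as a term). Cdkn1a, the cell cycle inhibitor p21 and a gene of the cell cycle list, showed the opposite order, with 54.6, 38.3 and 404 in young and 102, 778 and 575 in aged libraries (0.93). Of 11 platelet genes 5 were higher and 0 lower in aged against young cells (DESeq2 called 2), where 1.81% of all genes were higher and 0.29% lower. Of 28 stem cell genes 1 was higher and 0 lower, near the share of all genes. Their median log2 change was 0.36, and 14 of the 28 had an unadjusted p below 0.05 (1207 of all 9642 genes). In CASIN against young cells 4 were higher and 1 lower (1.88% and 0.622% of all genes), and DESeq2 called 7. Of 21 cell cycle genes 2 were higher and 1 lower in aged against young cells. The one that fell, Mcm2 (-1.33), lost its call without any of 4 libraries.

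Of 10 class II genes outside the rule that were tested for age within the selected cells, 0 were higher and 1 lower, where 0.29% of all genes were called lower. At an unadjusted p below 0.05 there were 4 of these 10 and 1207 of all 9642 genes. The gene called was Ctss, with 50.2, 32.2 and 29.2 in young, 15.4, 16.6 and 15.3 in aged and 10.2, 22.9 and 20.3 CPM in CASIN libraries. Each young library lay above each older one, yet the call (log2 change -1.26, edgeR adjusted p = 0.0245) was lost without young 1, aged 1 or CASIN 3. H2-DMa read 183, 123 and 135 in young, 147, 131 and 153 in aged and 135, 178 and 133 in CASIN libraries, and H2-DMb1 showed as little separation (adjusted p = 0.945 and 0.823). Spi1 fell by 0.74 on the log2 scale in aged cells (lost without aged 1) and by 0.74 in CASIN against young cells. The rule's own genes in the selected cells are a description only: Cd74 averaged 533 ± 163, 766 ± 233 and 598 ± 179 CPM in young, aged and CASIN mice.

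CASIN and aged class II positive cells were not told apart gene by gene. The edgeR test called 0 of 9642 genes (0.0%), with 344 at an unadjusted p below 0.05, and DESeq2 called 0. In simulated counts this comparison recovered 57.6% of changes of 1 and 7.22% of changes of 0.5 on the log2 scale. A count of 0 is therefore no measure of equal levels. Without aged 1 the edgeR count was 8, without aged 2 it was 3 and without CASIN 3 it was 1. Cdc42, which encodes the target of CASIN, read 355, 373 and 323 in young, 383, 397 and 401 in aged and 358, 401 and 365 in CASIN libraries and was not called in any comparison. CASIN acts on the activity of the protein, which mRNA does not measure.

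Class II genes could be tested across conditions in the whole Procr gate, since the gate does not use them. Cd74 averaged 134 ± 37.4 CPM in young, 272 ± 146 in aged and 220 ± 99.0 in CASIN libraries. By library it read 158, 91.0 and 153 in young, 107, 326 and 383 in aged and 134, 329 and 198 in CASIN mice. Aged 1 fell within the young range and aged 2 and 3 far above it. H2-Aa read 67.3, 43.0 and 63.9, then 57.3, 137 and 155, then 71.1, 159 and 95.3, with the same libraries high. H2-Ab1 and H2-Eb1 followed this order, and none of the 4 genes was called by edgeR between any of the groups. These sums mix the share of positive cells with the RNA per cell. The class II positive share of the gate, set by the same genes, was 27.7%, 15.6% and 17.7% in young libraries. It was 14.02%, 32.9% and 32.2% in aged and 24.4%, 38.3% and 20.1% in CASIN libraries. The part of each in the sums was not tested.

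Of 16 class II pathway genes tested in the gate 2 were higher and 2 lower in aged against young, where 7.13% of 11703 genes were called (5.12% higher, 2.02% lower, and 217 genes without aged 1, 327 without young 1, 372 without young 2, and 0 with no batch term). The proteases Ctsl (0.46) and Ctsb (0.53) were the higher and Cd86 (-1.37) and H2-Ob (-1.33) the lower, and each of the 4 lost its call when aged 1 was left out. In CASIN against young, where 12.8% of genes were called (7.73% higher, 5.04% lower, and 560 to 933 without young 1, young 2 or any 1 CASIN library, and 6 with no batch term), Ctsl (0.57), Ctsb (0.58) and Cd86 (-1.67) kept theirs in every such fit. Spi1 was lower in aged (-0.83) and CASIN (-0.81) than in young gate cells. Between CASIN and aged gate cells edgeR called 0 genes (0.0%), with 386 at an unadjusted p below 0.05, 0 called with DESeq2 and 16 called by edgeR without aged 1.

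**Figure D5:**
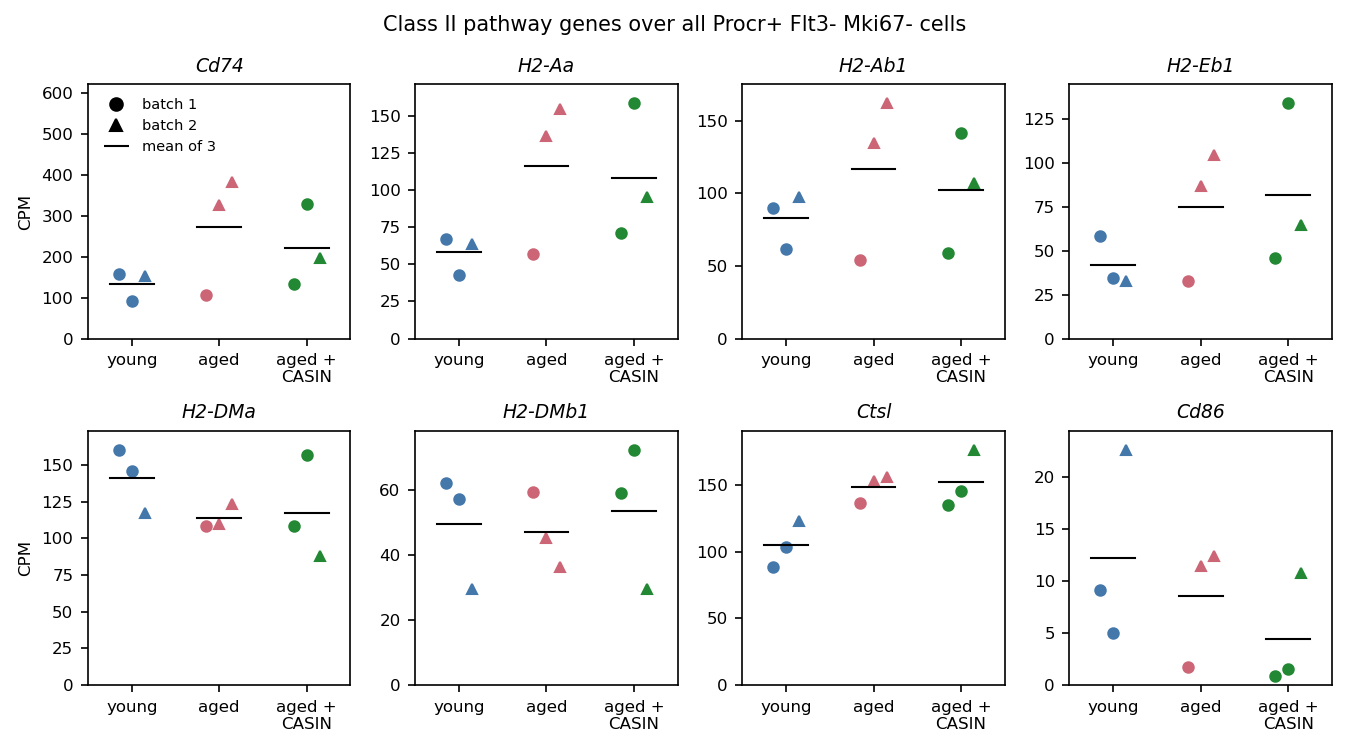
Each point is 1 library (circles batch 1, triangles batch 2) and each bar the mean of 3, in CPM summed over the Procr gate. Cd74 and the 3 H2 chains are high in aged 2, aged 3 and CASIN 2 and low in aged 1, so that the groups overlap, while Cd86 is lower in the CASIN than in the young libraries of each batch.

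Whether age acted differently on class II positive than on class II negative Procr+ cells was tested as an interaction over the same libraries. For aged against young 11 genes had a higher and 3 a lower change in the positive cells (0.133% and 0.0363%, together 0.169% of 8270 tested with edgeR). The count was 5 without young 1, of which 4 were among these 14. It was 4 without aged 2 and 0 with a mitochondrial limit of 5%. Nkg7, a granule protein of cytotoxic lymphocytes, averaged 31.4 CPM in young and 38.2 in aged positive cells, and 103 and 32.5 in negative cells (difference of log2 changes 1.96, edgeR adjusted p = 1.1e-05). In negative cells it read 137, 111 and 62.1 in young and 15.4, 25.1 and 57.2 in aged libraries, so the young negative cells held the high values and aged 3 came close to the lowest of them. For CASIN against young 31 were higher (0.375%) and 9 lower (0.109%), together 0.484%. The count was 20 without young 1 and 21 without CASIN 3, of which 17 and 20 were among these 40. Nkg7 (1.76), the cathepsin inhibitor-like Ctla2a (0.56), the microtubule regulator Stmn1 (0.66) and vimentin, Vim (0.71), were among the higher. All 4 averaged lower in CASIN than in young libraries in both classes, by less in the positive cells. Ctla2a averaged 2999 CPM in young and 1876 in CASIN positive cells against 3449 and 1409 in negative cells. Vim averaged 440 and 360.3 against 499 and 237, Stmn1 743 and 537 against 870.2 and 394, and Nkg7 31.4 and 25.2 against 103 and 24.8. For CASIN against aged the edgeR count was 0 (0.0%), with 315 at an unadjusted p below 0.05, and 0 with DESeq2.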

How the data were processed

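Gene-by-cell counts of UMIs were deposited by the authors, 1 matrix per library, made with Cell Ranger 3.1.0 on mm10 per the submitters' processing notes. From these counts, barcodes with 1000 to 40000 UMIs, at most 6000 genes and at most 10% mitochondrial UMIs were kept, which left 15975 of 32387. UMIs were summed per library and class of cell and tested with edgeR 4.0.16 (quasi-likelihood, TMM, filterByExpr, Benjamini-Hochberg over all genes tested, threshold 0.05, R 4.3.3), with sequencing batch as a term between conditions and the library as a block between classes. Levels (CPM) are UMIs scaled to 1000000 UMIs of the class in the library. Shares were compared by exact permutation tests (scipy 1.17.1) with exact Clopper-Pearson intervals, and doublets were marked with Scrublet (scanpy 1.11.5) but kept.

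The members and the gene lists were chosen with earlier results of these data known. Genes were named by a rule: the rule's markers, the class II list, up to 4 of the most abundant genes of each other list, and per comparison up to 10 genes in each direction with the largest changes at 20 CPM or more and 1 direction in both batches or all libraries. Other genes named were picked from the lists or the calls after their values were seen. Alternatives were a mitochondrial limit of 5%, thinning to 4000 UMIs, thresholds of 4 UMIs, removal of doublets, a residual filter on depth, DESeq2 1.42.0 and its size factors, no low-count filter, no batch term, a replicate block, only the 2 groups compared, all other gate cells as the comparator, and leaving out each library. Thinning used cells with at least 4000 UMIs, and the whole rule was then applied again to the thinned counts. The edgeR steps were tested on simulated counts. False calls were 11.1% of calls for aged against young and 9.86% for CASIN against aged in the positive cells. They were 6.98% in the gate, 8.84% against negative cells, 4.38% against the Flt3 progenitors and 14.3% for the interaction of aged against young. Changes of 1 on the log2 scale were recovered in 51%, 57.6%, 71.1%, 100%, 96.9% and 42% of genes, in the same order. Listed genes absent from the files (Mx2, Sdpr, Ifi30) were not analysed here, and some named genes are not reported here.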

Additional observations from a re-analysis of the deposited data

Results flagged for a closer look

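The change from young to other mice differed between class II positive and class II negative Procr+ cells in a few genes, by the interaction term of the edgeR fit. For aged against young, 14 genes passed the adjusted threshold. The difference of log2 changes (class II positive minus class II negative) was 1.96 for Nkg7, 0.48 for Ctla2a, 1.35 for Slco3a1 and 0.92 for the kinase Cdk6. Those of Nkg7 and Ctla2a kept the call in each fit that left out 1 library, while Slco3a1 lost it without young 1 or aged 1 and Cdk6 without young 1, where its value was 0.50. For CASIN against young, 40 genes passed, with 0.56 for Ctla2a, 0.66 for Stmn1, 1.16 for Cdk6, 0.71 for Vim and 1.76 for Nkg7. Of these, all but Cdk6 averaged lower in CASIN than in young libraries in both classes. Cdk6 lost this call without young 1, where its value was 0.76. Both comparisons rest on the same young libraries, of which young 2 and young 3 held 45 and 41 class II positive cells.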

How the results depend on the processing

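Counts of called genes are given here in the order aged against young, then CASIN against young, first within class II positive Procr+ cells (203 and 241) and then within the Procr gate (835 and 1495). With no batch term they were 1 and 1, then 0 and 6. Thinned to 4000 UMIs they were 11 and 17, then 312 and 632, of which 6 and 11, then 266 and 530, were among the main calls. Within the positive cells thresholds of 4 UMIs gave 68 and 99, DESeq2 80 and 127, and no filter on low counts 387 and 418, the latter with the median log2 change of all genes moved by 0.12 for aged against young. A fit of only the 2 groups compared gave 84 in the positive cells and 489 in the gate for aged against young, where no filter gave 1525 in the gate. A mitochondrial limit of 5% gave 800 for CASIN against young in the gate. Leaving out 1 library gave 40 to 263 and 48 to 339 in the positive cells, and 217 to 1111 and 560 to 1854 in the gate. For CASIN against aged, with 0 calls in either, the positive cells gave 1 with the limit of 5%, 5 with no filter and 0 to 8 without 1 library, and the gate gave 79 with no filter and 0 to 16 without 1 library. Class II positive against negative cells (236 calls) gave 52 with the limit of 5%, 58 thinned, 78 with DESeq2 and 125 to 292 without 1 library. Against the Flt3 progenitors (2941) thinning gave 227. The interaction counts (14 and 40) became 0 and 13 with the limit of 5%, 6 and 7 thinned, 2 and 9 with DESeq2, 36 for the first with no filter, and 4 to 25 and 20 to 45 without 1 library, and that of CASIN against aged became 3 with no filter and 0 to 1 without 1 library. Of the 6 and 7 thinned interaction calls, 1 and 5 were among the 14 and 40. The CASIN minus aged share of LSK turned to -0.33 points thinned and ran from -0.018 to 1.69 without 1 library. With the limit of 5% it was 1.89 points (exact permutation test, p = 0.2), at 3.09 in the first batch and 0.036 in the second. The share of the gate turned to -1.01 with the limit of 5%, -0.55 thinned and -0.12 at thresholds of 4 UMIs, and ran from -4.96 to 4.96. The change of Igkc against the progenitors turned to 0.063 under the residual filter and without Igkc-rich cells. Of 9 same-numbered pairs of libraries, the 7 within a batch correlated positively (r = 0.69 to 0.86) and the 2 across batches negatively (r = -0.65 and -0.72). Pairs with different numbers split by batch too, such as aged 1 with CASIN 2 (r = 0.80) and with CASIN 3 (r = -0.92). Since the sign followed batch, it cannot show whether the replicate numbers pair the libraries. With a replicate block the gate count for aged against young was 457, and 187 and 287 in the positive cells. Of 128 results on single genes 92 kept their call in every fit that left out 1 library. The cause of these moves was not tested, except that thinning and left-out libraries leave fewer counts. Young libraries held the fewest positive cells, which limits every comparison with them.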
